A study of Mus musculus with 8 samples.

Results

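The genes described here are 8 markers of the loop of Henle and the distal tubule, the segments of the nephron that lie after the proximal tubule: Slc12a1, Slc12a3, Kcnj1, Sostdc1, Tmem52b, Ppp1r1a, Egf and Tmem72. They were taken by symbol from the 24151 genes measured, with the RefSeq transcripts of each gene summed. Of the 8 genes, 5 have 1 transcript row and 3 (Slc12a1, Slc12a3 and Kcnj1) have 2 rows. The samples were kidneys of ICR mouse embryos, an outbred stock, collected at 4 stages from embryonic day E12.5 to E18.5 at intervals of 2 days. In the CPF group the mothers, mated at 8 weeks of age, received chlorpyrifos of 96% purity, an organophosphate insecticide, at 5 mg/kg under the skin every day of gestation 7.5 to 11.5. In the DMSO group the mothers received the same volume of the solvent, dimethyl sulfoxide, on the same days. There were 4 CPF libraries and 4 DMSO libraries, 1 for each agent and stage, and the last dose came before the first stage. The labels do not say how many embryos, litters or kidneys each library holds.

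The thick ascending limb of the loop of Henle takes up sodium, potassium and chloride through the cotransporter NKCC2, the product of Slc12a1, and returns the potassium to the lumen through the channel ROMK, the product of Kcnj1. It is almost impermeable to water, and so it dilutes the urine and builds the gradient of the medulla. The distal convoluted tubule follows and reabsorbs sodium chloride through NCC, the product of Slc12a3 and the target of thiazide diuretics. In human, loss of NKCC2 or ROMK causes forms of Bartter syndrome, and loss of NCC causes Gitelman syndrome.

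Values are TPM, a share of each library's RNA corrected for transcript length. The libraries listed 11714 to 12870 genes at 1 TPM or more. By the spacing of low values, a single read on a transcript of 1 kb corresponded to 0.061 to 0.105 TPM, so the lowest values below rest on few reads. The noncoding RNAs Rpph1 and Rmrp took 21.3% of all TPM in CPF E18.5 kidneys, against 41.8% in DMSO E18.5 kidneys, and 19.3 to 31.0% in the other 6 libraries. The E18.5 ratios of the 8 genes are therefore also given after rescaling to protein-coding (NM) transcripts. Genes of other organs were also present in the libraries. The summed level of 9 liver markers was 182, 4539, 5201 and 849 TPM in CPF kidneys in order of stage, against 13.3, 899, 61.6 and 38.5 TPM in DMSO kidneys, with Ahsg listed at 0 throughout and the other 8 past 2-fold higher in CPF at every stage. Of 8 pancreas markers, summed levels were 6.41, 4.95, 695 and 2.72 TPM in CPF kidneys, against 8.51, 4.05, 2.95 and 0.958 TPM in DMSO kidneys, with Ins2 listed at 0. Adrenal cortex markers reached 450 TPM in CPF and 6.91 TPM in DMSO kidneys at E16.5, and gonad and germ cell markers 243 and 10.9 TPM at E14.5. Erythroid markers summed to 36804 TPM in CPF and 8053 TPM in DMSO kidneys at E12.5 and to 28.0 and 65.3 TPM at E18.5. The part of these differences in the results below was not tested. Results without the E14.5 and E16.5 libraries are given, though the liver markers also differed at the stages kept.

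Promoter windows were found in the RefSeq table of GRCm38.p6 for 6 of the 8 genes, 7 windows in all. Each runs from 250 bases before the transcript start used for the window to 50 bases after it. The windows of Slc12a1, Tmem72 and Tmem52b are printed 5′ to 3′ because these 3 have a window among the 4 genes called higher at E18.5 than at E12.5. They were chosen after motif searches of which not all are reported here. Capitals mark the last 50 bases, which follow the start used for the window. The spans of these 3 genes given below begin within the lower-case bases, so not all lower-case bases lie before the gene. Of the motifs reported here, searched on both strands, TCAAGGTCA of ERR and ATTTGCAT of POU factors had 0 matches in the 7 windows, while 0.423% and 1.74% of all 32851 windows held them. GCCNNNGGC of AP-2 occurred in the Slc12a3 window and in 16.6% of all windows, and in none of the 3 printed here. A match, or none, is a description of these letters. The windows are chr2:125152350-125152649 on the plus strand for Slc12a1, chr6:116716709-116717008 on the minus strand for Tmem72 and chr6:129512307-129512606 on the plus strand for Tmem52b.
Slc12a1: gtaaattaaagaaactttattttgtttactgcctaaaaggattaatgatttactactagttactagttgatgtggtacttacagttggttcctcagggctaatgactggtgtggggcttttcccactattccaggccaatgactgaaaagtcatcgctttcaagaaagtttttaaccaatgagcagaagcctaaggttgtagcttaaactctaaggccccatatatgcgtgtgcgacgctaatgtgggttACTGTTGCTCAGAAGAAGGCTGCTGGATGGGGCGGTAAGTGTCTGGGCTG
Tmem72: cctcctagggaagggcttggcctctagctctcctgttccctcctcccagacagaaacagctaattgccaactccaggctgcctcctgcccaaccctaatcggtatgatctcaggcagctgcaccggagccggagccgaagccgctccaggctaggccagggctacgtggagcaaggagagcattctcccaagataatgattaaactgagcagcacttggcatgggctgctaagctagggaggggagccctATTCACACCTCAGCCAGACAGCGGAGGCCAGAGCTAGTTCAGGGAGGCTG
Tmem52b: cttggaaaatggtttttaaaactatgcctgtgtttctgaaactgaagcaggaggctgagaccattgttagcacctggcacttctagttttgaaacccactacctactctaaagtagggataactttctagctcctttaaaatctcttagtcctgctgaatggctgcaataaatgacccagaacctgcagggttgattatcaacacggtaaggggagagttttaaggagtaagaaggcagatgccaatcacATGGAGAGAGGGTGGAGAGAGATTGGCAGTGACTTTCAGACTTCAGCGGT

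Over embryonic development the levels of most of these genes were higher at late stages, and at E18.5 all 7 genes with any signal stood higher in CPF than in DMSO kidneys. Sostdc1 and Tmem52b were the most abundant at E18.5, Slc12a1 stayed under 10 TPM and Slc12a3 was listed at 0 in all 8 libraries. In RNA of a whole kidney, fewer cells of a segment and less RNA per cell cannot be told apart. The first group is that of the salt transporters. Slc12a1 (chromosome 2, 125152510 to 125230002, GRCm38) was listed at 0, 0.102, 0.789 and 8.23 TPM in CPF kidneys at the 4 stages, E12.5 first, against 0, 0.0213, 2.08 and 1.59 TPM in DMSO kidneys. The CPF E18.5 kidneys stood above the other 7 libraries, and at E16.5 the order was the opposite, with the CPF level below the DMSO level. Both transcript rows had this order. One was at 0.175 TPM in CPF against 0.816 TPM in DMSO kidneys at E16.5 and at 2.76 against 0.578 TPM at E18.5, and the other at 0.614 against 1.27 TPM and at 5.47 against 1.01 TPM.

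Kcnj1 (chromosome 9, 32372418 to 32399197) was listed at 0.0329, 0.122, 0.0792 and 1.57 TPM in CPF kidneys over the 4 stages, against 0, 0, 0.285 and 0.494 TPM in DMSO kidneys. It too was higher in CPF at E18.5 and lower in CPF at E16.5. Its 2 rows held an estimated 30 and 15 reads in CPF E18.5 kidneys, its highest library. Slc12a3 (chromosome 8, 94329109 to 94366222) was listed at 0 in every library. Genes with several transcript rows were often near 0 in these files: 1 TPM was reached on average by 22.7% of the 4777 genes of this kind and by 60.8% of the 19374 genes with 1 row. The low values of Slc12a1, Kcnj1 and Slc12a3 are therefore given as listed and not read as low expression. Umod, the gene of uromodulin and the usual defining marker of the thick ascending limb, has 2 rows and was listed at no more than 0.0398 TPM. Of Slc12a1, Slc12a3, Kcnj1 and Umod, the markers chosen to define the segments, Slc12a1 alone reached 1 TPM in more than 1 library.

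Sostdc1 and Egf encode secreted proteins. Sostdc1 (chromosome 12, 36314169 to 36318452), an inhibitor of BMP and WNT signalling also called USAG-1, was at 3.57, 8.16, 49.8 and 237 TPM in CPF kidneys, against 2.39, 9.39, 47.3 and 56.3 TPM in DMSO kidneys. The 2 agents ran side by side up to E16.5 and parted at E18.5. Egf (chromosome 3, 129677574 to 129755322), the precursor of epidermal growth factor, which the adult distal tubule makes in large amounts and which stimulates magnesium uptake there, was at 1.00, 1.63, 1.23 and 3.93 TPM in CPF kidneys, against 1.43, 1.48, 1.39 and 1.64 TPM in DMSO kidneys. Its DMSO levels hardly moved over the 4 stages, and the CPF E18.5 library was the only one above 2 TPM.

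Ppp1r1a (chromosome 15, 103530279 to 103538027) encodes inhibitor-1, which blocks protein phosphatase 1 once protein kinase A has phosphorylated it. It was at 12.8, 11.2, 14.3 and 35.7 TPM in CPF kidneys, against 16.7, 12.6, 10.2 and 15.2 TPM in DMSO kidneys. It was the most abundant of the 8 genes at E12.5 and E14.5 in both agents, and only its CPF E18.5 value lay outside 10 to 17 TPM. Ppp1r1a is also a gene of pancreatic islets and skeletal muscle: at E16.5, where it was at 14.3 TPM in CPF and 10.2 TPM in DMSO kidneys, the pancreas markers summed to 695 and 2.95 TPM, and the 7 skeletal muscle markers to 161 and 64.4 TPM. At E18.5 the pancreas markers summed to 2.72 TPM in CPF and 0.958 TPM in DMSO kidneys and the muscle markers to 19.6 and 5.87 TPM. The part of those tissues in the Ppp1r1a values was not tested.

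Tmem52b and Tmem72 encode membrane proteins of the tubule whose function is little known. Tmem52b (chromosome 6, 129512549 to 129519227) was at 2.14, 9.10, 38.1 and 158 TPM in CPF kidneys, against 0.168, 9.29, 28.5 and 36.8 TPM in DMSO kidneys. Besides E18.5, its values parted at E12.5, where the TPM ratio of CPF to DMSO was 12.7 on an estimated 61 and 6 reads. Tmem72 (chromosome 6, 116691539 to 116716982) was at 0.878, 1.07, 5.01 and 39.0 TPM in CPF kidneys, against 0.894, 0.532, 6.24 and 7.10 TPM in DMSO kidneys. It was close between the agents at E12.5 and E16.5, and at E18.5 it had the widest TPM ratio of the 8 genes, at 5.50.

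**Figure D1:**
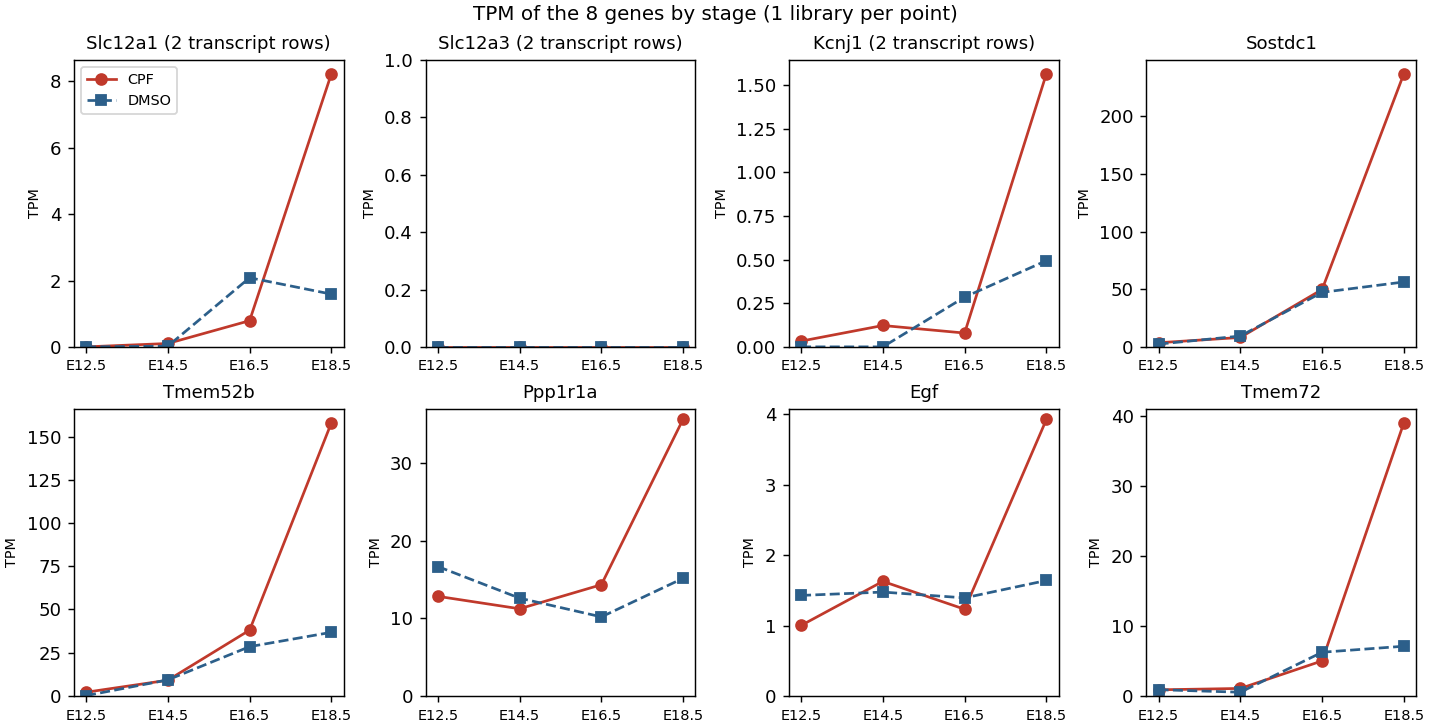
Levels of the 8 genes in TPM, each panel with its own linear axis from 0, against embryonic day, with 1 point per library for CPF (red circles) and DMSO (blue squares) kidneys. The CPF point at E18.5 lies above the DMSO point in the 7 genes that are not at 0, for example at 237 against 56.3 TPM for Sostdc1, while earlier points lie close together or change order.

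Ordered by level at E18.5, the genes ran Sostdc1, Tmem52b, Tmem72, Ppp1r1a, Slc12a1, Egf, Kcnj1 and Slc12a3 in CPF kidneys. In DMSO kidneys Ppp1r1a stood above Tmem72, Egf stood above Slc12a1, and the order was otherwise the same. With 1 library per agent and stage there is no spread within a point, so neighbours in this order cannot be separated.

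The first comparison asks how the levels differed between the last and the first stage, with both agents in 1 model. Of the 8 genes, 6 passed the low-value filter (1 TPM or more in 2 libraries or more), and Kcnj1 and Slc12a3 did not. Slc12a1, Sostdc1, Tmem52b and Tmem72 rose between the stages, and Ppp1r1a and Egf did not pass the test. In the limma fit on log2(TPM + 1), Tmem52b was 5.34 ± 0.49 (SE) higher at E18.5 than at E12.5 (adjusted p = 8.14e-05), and Sostdc1 was 4.89 ± 0.49 higher (adjusted p = 0.000220). Tmem72 was higher by 3.26 ± 0.58 (adjusted p = 0.00547) and Slc12a1 by 2.29 ± 0.55 (adjusted p = 0.0259). The 4 calls were made in a fit across 13677 genes in which 639 genes, 4.67% of those tested, were called higher. The differences of Ppp1r1a, 0.64 ± 0.42, and Egf, 0.71 ± 0.43, had adjusted p of 0.376 and 0.327. The median over the 6 genes was 2.77 on the log2 scale, against -0.21 over all tested genes. With no filter on low values, Slc12a1 and Tmem72 lost their calls, with adjusted p of 0.109 and 0.0539. A gene near 0 early passed the filter only through its late values.

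The stage differences were wider within CPF than within DMSO kidneys in all 6 genes. Between E18.5 and E12.5 the log2 difference of Tmem52b was 5.66 within CPF and 5.02 within DMSO kidneys, and that of Sostdc1 was 5.70 and 4.08. For Tmem72 it was 4.41 within CPF and 2.10 within DMSO kidneys, and for Slc12a1 it was 3.21 and 1.37. Ppp1r1a differed by 1.41 within CPF and by -0.13 within DMSO kidneys, and Egf by 1.30 and 0.12. The step into E18.5 also differed. In TPM, the level at E18.5 over that at E16.5 was 10.4 for Slc12a1, 7.80 for Tmem72, 4.76 for Sostdc1 and 4.15 for Tmem52b within CPF kidneys. Within DMSO kidneys the same ratios were 0.763, 1.14, 1.19 and 1.29. After rescaling to protein-coding transcripts, the log2 steps of these genes, in the same order, were 2.54, 2.78, 2.22 and 2.02 within CPF kidneys. Within DMSO kidneys the rescaled steps were -0.11, 0.40, 0.49 and 0.60, beside -0.25, 0.16, 0.25 and 0.36 as deposited. The p-values measure only how the 8 libraries depart from the model, and not the spread between animals or litters of 1 agent and stage.

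**Figure D2:**
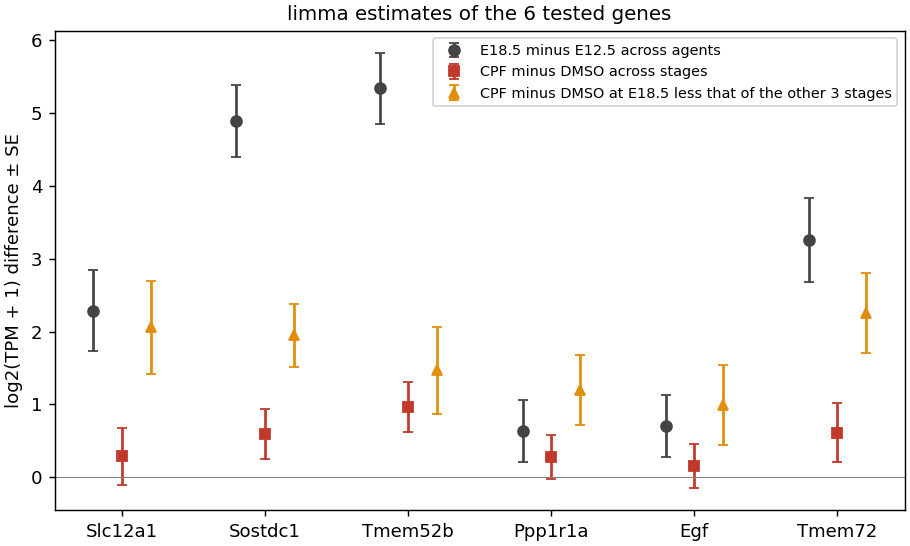
Estimates of the limma fits for the 6 genes that passed the filter, as differences of log2(TPM + 1) with bars of 1 SE, for E18.5 minus E12.5, for CPF minus DMSO over all stages and for CPF minus DMSO at E18.5 less the other 3 stages. The E18.5 minus E12.5 estimates of Tmem52b (5.34) and Sostdc1 (4.89) lie far from 0, and the CPF minus DMSO estimates lie between 0.15 and 0.97 while those of the last contrast lie between 1.00 and 2.25.

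The next comparison asks how CPF and DMSO kidneys differed within each stage. At E12.5, E14.5 and E16.5 the genes were spread on both sides of equality: 3 of 6, 4 of 7 and 3 of 7 genes with signal were higher in CPF kidneys. At E18.5 all 7 were higher in CPF, and 5 of them by more than 2-fold on log2(TPM + 1). The log2 ratios at E18.5 were 2.30 for Tmem72, 2.07 for Tmem52b, 2.05 for Sostdc1, 1.83 for Slc12a1, 1.18 for Ppp1r1a, 0.90 for Egf and 0.78 for Kcnj1. In TPM the ratios were 5.50, 4.29, 4.21, 5.18, 2.35, 2.39 and 3.17 in the same order of genes. Of all tested genes, 20.4% were past 2-fold higher at E18.5, and the shares at E12.5, E14.5 and E16.5 were 6.04%, 6.18% and 7.44%, where 1 gene (Tmem52b), 0 and 0 of the 8 were past that fold. With 1 library on each side these ratios have no replicate check and no p-value.

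The whole distribution of genes was shifted at E18.5 along with the 8 genes. The median log2 ratio of all tested genes was 0.53 at E18.5, beside -0.12, 0.03 and 0.13 at the earlier stages. After rescaling to protein-coding transcripts it was 0.16 at E18.5, with 9.82% of 12095 genes past 2-fold higher, and the ratios were 1.91 for Tmem72, 1.62 for Tmem52b, 1.59 for Sostdc1, 1.61 for Slc12a1, 0.74 for Ppp1r1a, 0.69 for Kcnj1 and 0.63 for Egf. On this scale 4 of the 8 genes were past 2-fold, without Ppp1r1a. Relative to the median of all tested genes, the log2 ratio was 1.77 higher for Tmem72, 1.54 for Tmem52b, 1.52 for Sostdc1, 1.30 for Slc12a1, 0.65 for Ppp1r1a, 0.37 for Egf and 0.25 for Kcnj1, and all 7 stood above it on both scales.

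**Figure D3:**
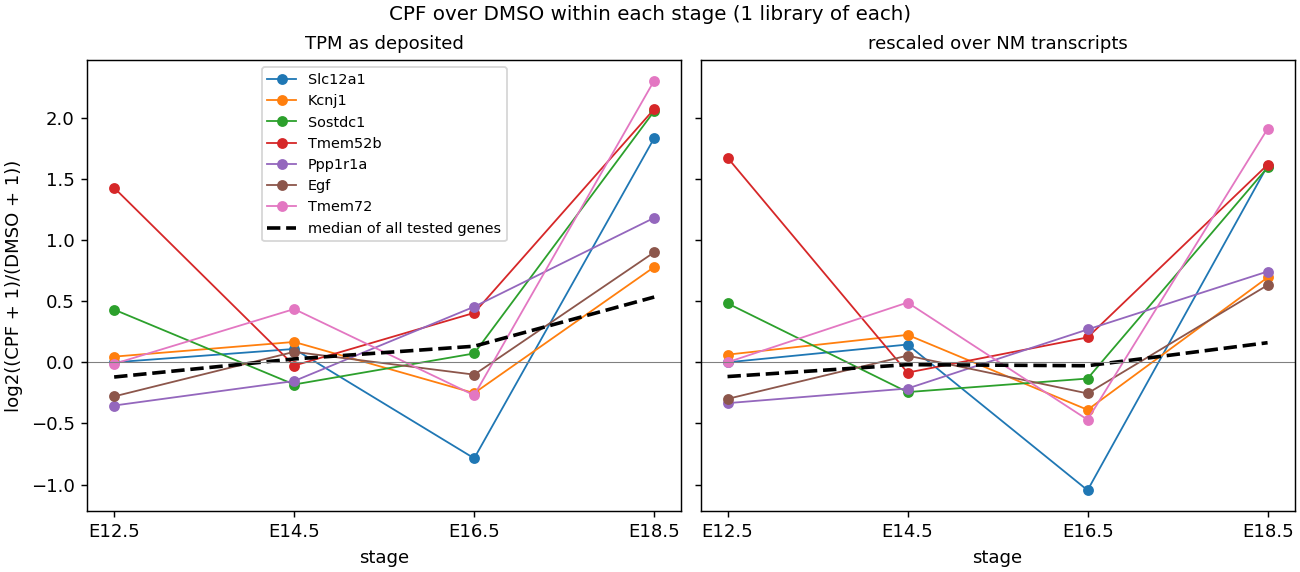
Log2 ratio of CPF to DMSO kidneys on log2(TPM + 1) at each embryonic day, 1 line per gene, with the median of all tested genes, for TPM as deposited (left) and rescaled to NM transcripts (right). In the left panel the lines lie within 0.45 of 0 up to E16.5, apart from Tmem52b at E12.5 (1.43) and Slc12a1 at E16.5 (-0.79), and at E18.5 they lie between 0.78 and 2.30, above the median of all genes of 0.53.

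Over the 4 stages together, no call was made for CPF against DMSO in any of the 6 genes tested. The limma estimate was 0.97 ± 0.34 for Tmem52b (adjusted p = 0.355), 0.61 ± 0.41 for Tmem72 (adjusted p = 0.726) and 0.59 ± 0.35 for Sostdc1 (adjusted p = 0.668). It was 0.29 ± 0.39 for Slc12a1, 0.28 ± 0.30 for Ppp1r1a and 0.15 ± 0.30 for Egf, with adjusted p of 0.891, 0.852 and 0.928. All 6 estimates were above 0, and their median of 0.44 stood beside 0.15 over all genes. The count of 0 is read against 21 of 13677 genes called higher, or 0.154%, and 1 gene called lower, while 1306 genes, and 1 of the 6 (Tmem52b), had an unadjusted p under 0.05. Without the E18.5 pair all 6 estimates were lower, at 0.60 for Tmem52b, 0.11 for Sostdc1, 0.05 for Tmem72, -0.02 for Ppp1r1a, -0.10 for Egf and -0.23 for Slc12a1. Without the E14.5 and E16.5 pairs, the stages with the most liver RNA in CPF kidneys, the estimates were 1.75 ± 0.72 for Tmem52b, 1.24 ± 0.70 for Sostdc1 and 1.15 ± 0.67 for Tmem72. For Slc12a1, Ppp1r1a and Egf they were 0.92 ± 0.52, 0.41 ± 0.71 and 0.31 ± 0.56, and no call was made. Each SE was wider than in the fit of all 4 stages, so the higher estimates are not read as a firmer difference. The pairs kept also differed in summed liver markers, at 182 TPM in CPF against 13.3 TPM in DMSO kidneys at E12.5 and 849 against 38.5 TPM at E18.5. This fit therefore does not remove that difference.

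A difference in slope over embryonic days was not detected either. The slope of CPF minus that of DMSO was 0.31 ± 0.21 log2 units per day for Tmem72, 0.26 ± 0.14 for Sostdc1, 0.26 ± 0.11 for Ppp1r1a, 0.23 ± 0.18 for Slc12a1, 0.17 ± 0.11 for Egf and 0.12 ± 0.17 for Tmem52b. Their adjusted p ran from 0.193 to 0.702 in limma, and 0% of 13677 genes were called, with 3615 at an unadjusted p under 0.05, among them 0 of the 6. Because the lines parted at the last stage, a model for that stage alone was added after the values were seen: the CPF minus DMSO difference at E18.5 less its mean at the other 3 stages. It was 2.25 ± 0.55 for Tmem72, 2.06 ± 0.64 for Slc12a1, 1.95 ± 0.43 for Sostdc1, 1.47 ± 0.60 for Tmem52b, 1.20 ± 0.48 for Ppp1r1a and 1.00 ± 0.55 for Egf. In limma the adjusted p of these ranged from 0.153 to 0.353, so 0 of 6 passed the threshold. Before adjustment 5 of 6 had a limma p under 0.05, as did 2452 of all 13677 genes. Over all genes 1 was called, or 0.00731%. With NM scaling the step was between 0.80 for Egf and 1.91 for Slc12a1. On that scale 3 of 6 (Slc12a1, Sostdc1 and Tmem72) had a p under 0.05 before adjustment, beside 1416 of 12095 genes. After quantile normalization the step was between 0.58 for Ppp1r1a and 1.82 for Tmem72. There 2 of 6 (Sostdc1 and Tmem72) were under that value, beside 1240 of 13677 genes. With TPM as deposited, the median step over the 6 genes was 1.71, against 0.53 over all genes. This contrast leaves 2 residual degrees of freedom, and it was chosen for the pattern that it describes.

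Other genes of the thick ascending limb rose at E18.5 as well. Of 20 further genes of thick ascending limb transport, 13 passed the filter. Beside 4.67% of all tested genes called higher, 12 of these 13 rose at E18.5 against E12.5 in limma and 0 fell. Genes near 0 at E12.5 passed the filter only through later values, which favours rises in this count and in those of the lists below. They include Bsnd, which encodes the chloride channel subunit barttin, Cldn16 and Cldn19, the claudins of the paracellular magnesium path, and Casr, the calcium-sensing receptor. Cldn16 was at 0, 0.322, 2.78 and 30.4 TPM in CPF kidneys, against 0, 1.85, 4.96 and 6.91 TPM in DMSO kidneys. Like Slc12a1, it was lower in CPF kidneys at E16.5 and higher in CPF at E18.5. Cldn16 differed by 3.98 ± 0.65 (adjusted p = 0.00537) between E18.5 and E12.5 and Casr by 3.23 ± 0.64 (adjusted p = 0.0136). The list also holds genes that other tubule segments use, among them Atp1b1 and Fxyd2 of the sodium pump, Slc9a3 and Car15, which were among the 12. Ptger3, a prostaglandin receptor, did not pass the test (1.41 ± 0.53, adjusted p = 0.125), and Cldn10, with 6 rows, was listed at 0.

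Within E18.5 the median log2 ratio of the 13 genes tested was 2.11 (1.65 after rescaling to protein-coding transcripts). Of these 13, 12 were past 2-fold higher in CPF kidneys, beside 20.4% of all tested genes. The exception was Ppp1r1b, the relative of inhibitor-1 called DARPP-32, at 3.34 TPM in CPF and 3.25 TPM in DMSO kidneys.

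Genes of the segments further along the tubule were listed too. Of 12 genes of magnesium handling in the distal convoluted tubule, 10 were tested and 4 rose at E18.5 against E12.5: Pvalb, the calcium-binding parvalbumin of the early distal convoluted tubule, Kcnj10, Fxyd2 and Pcbd1. Kcnj10 and Fxyd2 are also in the transport list and among its 12. Pvalb was at 0, 0, 0.541 and 19.1 TPM in CPF kidneys, against 0, 0.110, 0.524 and 5.67 TPM in DMSO kidneys, and differed by 3.53 ± 0.48 between the stages (adjusted p = 0.000799 in limma). Being under 1 TPM at every stage before E18.5, Pvalb passed the filter only through its E18.5 values. Its p is therefore not read as support for the rise. Parvalbumin marks the segment of Slc12a3, which was listed at 0. Of 8 genes of calcium handling in the connecting tubule, 6 were tested and 4 rose: S100g, which encodes calbindin-D9k, the channel gene Trpv5, the vitamin D receptor gene Vdr and the kallikrein gene Klk1. S100g was at 8.45, 41.6, 74.2 and 1117 TPM in CPF kidneys, against 1.01, 34.0, 204 and 1016 TPM in DMSO kidneys, and its log2 ratio at E18.5 was 0.14. At E18.5, 5 of the 10 and 4 of the 6 were past 2-fold higher in CPF kidneys, with median log2 ratios of 1.16 and 1.50 (0.98 and 1.05 after rescaling). Over all tested genes, 20.4% were past that fold, and 4.67% were called higher at E18.5 than at E12.5.

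Regulators and relatives of the cotransporters were read in the same way. Of 10 genes of the WNK and SPAK kinase cascade, which phosphorylates and activates NKCC2 and NCC, 7 were tested (not Wnk2, Wnk3 and Oxsr1) and 0 were called at E18.5 against E12.5 in limma (1 at an unadjusted p under 0.05), beside 4.67% of all genes called higher. The most abundant were Cul3, a ubiquitin ligase subunit, at 198, 234, 217 and 230 TPM in CPF kidneys against 205, 184, 191 and 141 TPM in DMSO kidneys, and Cab39, a cofactor of SPAK, at 132, 151, 144 and 164 TPM in CPF kidneys against 127, 130, 130 and 109 TPM in DMSO kidneys. At E18.5, 2 of the 7 (Wnk4 and Klhl3) were past 2-fold higher in CPF kidneys, with a median log2 ratio of 0.82. Of 7 other cotransporters of the SLC12 family, 5 were tested and limma called 0 (1 had an unadjusted p under 0.05). At E18.5, 1 of the 5 (Slc12a7) was past 2-fold higher, with a median of 0.48. The counts past 2-fold in the cascade and in this family stand beside 20.4% of all tested genes. Slc12a2, the widely expressed relative NKCC1, was at 130, 102, 80.7 and 121 TPM in CPF kidneys, against 108, 129, 121 and 86.6 TPM in DMSO kidneys.

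Among 20 transcription factors of the distal nephron, 16 were tested and 3 rose at E18.5 against E12.5, Irx1, Irx2 and Emx1, by 3.43 ± 0.52, 2.88 ± 0.48 and 3.85 ± 0.54 on the log2 scale (adjusted p = 0.00168, 0.00287 and 0.00114 in limma). Irx1, an Iroquois factor of the intermediate nephron segment, was at 0.784, 1.69, 10.7 and 34.3 TPM in CPF kidneys, against 0.235, 0.860, 9.91 and 6.25 TPM in DMSO kidneys. Its levels were near each other at E16.5 and apart at E18.5, as those of Sostdc1 were. Of the 16 tested, 12 were past 2-fold higher in CPF kidneys at E18.5, with a median log2 ratio of 1.37 (0.98 after rescaling). The share of all tested genes past that fold was 20.4%, and the share called higher between the stages was 4.67%.

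The partners of the secreted and inhibitory members were listed by pathway. Of 14 BMP and WNT genes around Sostdc1, 13 were tested, 0 rose and 1 fell at E18.5 against E12.5: Bmp5, a BMP ligand, was at 21.2, 15.1, 10.9 and 2.40 TPM in CPF kidneys, against 18, 10.9, 7.42 and 2.77 TPM in DMSO kidneys (-2.52 ± 0.39, adjusted p = 0.00177 in limma). Bmp7, a ligand that Sostdc1 binds, was at 59.6 TPM in CPF and 36.1 TPM in DMSO kidneys at E18.5. Of 15 genes of the EGF family, its receptors and sheddases, 10 were tested and 2 rose, the receptor gene Erbb4 by 3.37 ± 0.62 (adjusted p = 0.00886) and the ligand gene Btc by 2.61 ± 0.47 (adjusted p = 0.00482). Of 11 subunits and inhibitors of protein phosphatase 1, 9 were tested and 1 rose, Ppp1r1b by 1.45 ± 0.39 (adjusted p = 0.0381), a gene that the transport list also holds. At E18.5, 5 of 13, 4 of 10 and 0 of 9 were past 2-fold higher in CPF kidneys, with median log2 ratios of 0.71, 0.95 and 0.03, beside 20.4% of all genes past that fold. The calls between the stages stand beside 4.67% of all genes called higher and 510 of 13677 called lower, and nothing particular to these lists is read from them. In limma 0 genes of these 9 lists were called for CPF against DMSO over all stages, while up to 2 in a list had an unadjusted p under 0.05.

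**Figure D4:**
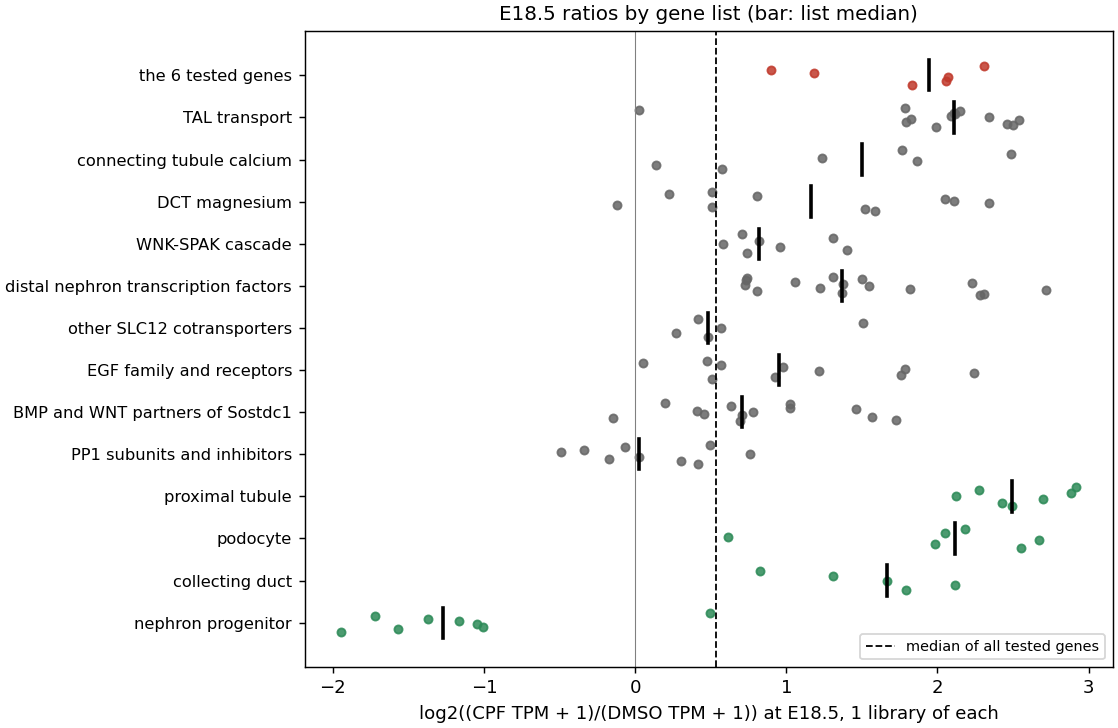
Log2 ratio of CPF to DMSO kidneys at E18.5 for each tested gene of the 9 pathway lists and of marker lists of other kidney cell types, 1 point per gene, with list medians. The median of thick ascending limb transport (2.11) lies near those of proximal tubule (2.50) and podocyte (2.11) markers, and that of nephron progenitor markers (-1.27) lies below 0.

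Markers of other kidney cell types also differed at E18.5. Of 8 proximal tubule markers 7 were tested and all 7 were past 2-fold higher in CPF kidneys, with a summed level of 3143 TPM in CPF and 519 TPM in DMSO kidneys at E18.5, and with Slc22a8 listed at 0. Podocyte markers summed to 654 and 174 TPM and collecting duct markers to 309 and 97.6 TPM in CPF and DMSO kidneys, with 5 of 6 and 4 of 5 tested genes past 2-fold higher. Over all tested genes, 20.4% were past 2-fold higher at this stage. Nephron progenitor markers summed to 273 TPM in CPF and 389 TPM in DMSO kidneys, and 7 of 8 were past 2-fold lower in CPF. The exception, Itga8, was at 188 TPM in CPF and 133 TPM in DMSO kidneys and made up most of the CPF sum. The sums therefore understate how much lower the other markers were. The share of all tested genes past 2-fold lower was not counted, so the count of lower markers has no background beside it. The median log2 ratios of the 4 lists were 2.50, 2.11, 1.67 and -1.27, beside 1.94 for the 6 tested loop and distal tubule genes. Over the 4 stages the proximal tubule sum ranged from 11.8 to 3143 TPM in CPF and from 13.1 to 519 TPM in DMSO kidneys, and the podocyte sum from 127 to 654 TPM in CPF and from 136 to 247 TPM in DMSO kidneys. The collecting duct sum ranged from 27.5 to 309 TPM in CPF and from 38.3 to 97.6 TPM in DMSO kidneys, and the progenitor sum from 241 to 367 TPM in CPF and from 354 to 495 TPM in DMSO kidneys. Their part in the E18.5 difference of the 8 genes was not tested.

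Correlations between the genes over the 8 libraries are given as a description, since all genes of a library share its depth and composition. Over the 21 pairs of the 7 genes with signal, the Pearson correlation of log2(TPM + 1) ran from 0.45, between Tmem52b and Ppp1r1a, to 0.99, between Slc12a1 and Tmem72. It was 0.97 between Sostdc1 and Tmem52b, 0.95 between Slc12a1 and Kcnj1, 0.92 between Kcnj1 and Egf, 0.86 between Ppp1r1a and Egf and 0.82 between Slc12a1 and Egf. The rank (Spearman) correlations of these pairs were 0.98, 0.90, 0.56, 0.38 and 0.51 in the same order. For Slc12a1 and Ppp1r1a the Pearson value was 0.70 and the rank value 0.08. The CPF E18.5 library held the highest value of all 7 genes, which raises the Pearson values. Outside the 8, among 9133 genes with 1 row and a mean of at least 5 TPM, the 3 genes closest to Sostdc1 were Aqp4 (0.997), Slc47a1 (0.995) and Clic5 (0.994), and those closest to Tmem72 were Pck1 (0.996), Gm15217 (0.992) and Mfsd4b1 (0.992). Closest to Tmem52b were Ctsh (0.989), Samd9l (0.988) and Enpep (0.987). Pck1 encodes a gluconeogenic enzyme and Enpep a brush border peptidase of the proximal tubule, and Slc47a1 encodes a proximal tubule exporter of organic cations. Pck1 was at 0.271, 0.180, 6.28 and 215 TPM in CPF kidneys, against 0, 0.0377, 10.1 and 16.7 TPM in DMSO kidneys. Its course crossed at E16.5 and parted at E18.5 like that of Tmem72. Closest to Ppp1r1a were Atp5g3 (0.961), Dnajc4 (0.959) and Arhgap10 (0.957), and closest to Egf were Itga8 (0.960), Cisd3 (0.960) and Mut (0.953).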

How the data were processed

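RNA sequencing of embryonic kidney started from 2 μg of total RNA per library, per the labels' protocols. Trimmomatic, STAR and mm10 are named in the submitters' processing notes, without versions, and the step that assigned reads to transcripts is not stated there. The authors deposited 1 table of TPM per library for 32862 RefSeq transcripts (28523 NM and 4339 NR), and every library has the same total. TPM keeps no depth. Rows were summed per symbol, and 52 symbols listed as dates were restored with the RefSeq table of GRCm38.p6, which also gave coordinates. Reads were estimated from the spacing of low values, of which 64.7 to 70.4% were whole within a tolerance of 0.05 reads, with GENCODE lengths. This share is low, so the read estimates are approximate. No count test was run, since the deposited values are TPM and not counts.

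The test was the form planned for TPM: limma 3.58.1 in R 4.3.3, with trend and robust moderation, on log2(TPM + 1) over 13677 genes with at least 1 TPM in at least 2 libraries. On this scale the fold change of a low gene is understated. One fit held stage and agent, another agent by day. P-values were adjusted by Benjamini-Hochberg across all 13677 genes and called under 0.05. The stage term pairs the libraries of 1 stage, which follows from the design. Procedures were tested on simulated data. The 8 genes and all lists were chosen with earlier results of these data known. Named were the 8 genes, the called genes of each list or else its 2 most abundant, and the 3 most alike genes by correlation for each of the 8 with 1 row and a mean of at least 1 TPM. Wnk4, Klhl3, Ptger3, Cldn10, Bmp7 and Umod were named after their values were seen. Alternatives were other pseudocounts and filters, quantile normalization, scaling to NM transcripts, no moderation, other stage terms and leaving out stages. Rpph1 and Rmrp were kept in the TPM values. Some results of the lists and motifs are not reported here.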

Additional observations from a re-analysis of the deposited data

How the results depend on the processing

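Calls of CPF against DMSO over all genes, 21 higher and 1 lower, depended on the processing. A pseudocount of 0.1 gave 77 higher and 6 lower and one of 0.5 gave 40 and 3, a filter of 5 TPM gave 89 and 9, scaling to NM transcripts gave 10 higher, and limma with neither trend nor robust moderation gave 4 and 0. No filter gave 0 and 0 (1537 genes at an unadjusted p under 0.05), quantile normalization 0 and 0 (1485), and embryonic day as a linear covariate 0 and 0 (1262). The fit with no stage term, and so without the replicate block that pairs libraries of 1 stage, gave 0 and 0 (656). Leaving out the E14.5 and E16.5 pairs together, an alternative chosen after seeing the data, gave 27 higher and 7 lower, and leaving out 1 stage pair at a time gave 25 to 190 higher and 0 to 31 lower. For E18.5 minus E12.5, with 639 higher and 510 lower, no filter gave 271 and 123, and NM scaling gave 1202 higher. In the fit with no filter, Slc12a1 and Tmem72 passed no longer, with adjusted p of 0.109 and 0.0539. The E18.5 step, also added after seeing the data, called 1 gene with TPM as deposited, 1 with NM scaling and 0 with quantile normalization (1240 at an unadjusted p under 0.05).

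Of the 6 genes tested, 0 were called for CPF against DMSO or for slope under the alternatives run. Under the 5 TPM filter only 4 of them were tested, since Slc12a1 and Egf did not pass it. The CPF minus DMSO estimate of Egf was -0.093 with quantile normalization. Leaving out 1 stage pair at a time gave -0.23 to 0.65 for Slc12a1, -0.017 to 0.49 for Ppp1r1a, -0.098 to 0.30 for Egf, 0.051 to 0.91 for Tmem72, 0.11 to 0.85 for Sostdc1 and 0.60 to 1.30 for Tmem52b, with the lowest value in each case without E18.5. The slope of Tmem52b was -0.12 with a pseudocount of 0.1. Without 1 stage pair the slopes ran from -0.20 to 0.43 for Slc12a1, -0.090 to 0.56 for Sostdc1, -0.26 to 0.52 for Tmem52b and -0.064 to 0.47 for Tmem72, again lowest without E18.5. The cause of these changes was not tested. Depth limits Slc12a1, Kcnj1 and Egf most by the estimated reads, and 1 library per agent and stage leaves the E18.5 differences without a replicate.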
